A study of Mus musculus with 8 samples.

Results

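The messenger RNAs of 39 DNA replication genes were followed in mouse bone marrow, in cells sorted as multipotent progenitors (MPPs). The genes were chosen by name from the textbook machinery that copies DNA, from the origin recognition complex to the enzymes that supply nucleotides. This choice, and that of the lists set beside it below, was made with earlier results of these data known. All 39 were found among the 37980 Ensembl gene rows of the table. Of these, 37 passed the filter on low values and 2, Orc1 and Fen1, did not. The MPPs were sorted as Lin-CD48-ckit+Sca1+CD135+CD150- cells, with 1000 cells per library and 4 libraries in each of 2 groups. NA MPPs came from NA LSL/+; Vav-Cre mice, in which Cre is active in blood cells and the Nup98-Hoxa10hd fusion gene is expressed from the Rosa26 locus. WT MPPs came from age-matched CD45.2 mice, whose age is not given in the sources used here. All mice are labelled C57BL/6. Libraries carry the name and number of the group (NA1, WT4). No label says whether the 4 aliquots of a group came from separate mice, so the p-values measure the spread between these libraries, which may be technical.

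A DNA strand can be copied from an origin only after the origin recognition complex, Cdc6 and Cdt1 have loaded the Mcm2-7 helicase on it, a step called licensing. Cdc45 and the GINS complex then switch the helicase on, the primase and polymerases extend primers, the replication factor C loader places the Pcna clamp, and the ligase and flap nuclease join the lagging-strand pieces. Many of these genes are transcribed under E2F factors when a cell leaves the resting state, so that their RNA is commonly read as a sign of cells in S phase. Stem and progenitor cells of the bone marrow include many that are not cycling. In bulk libraries, fewer cells of a type and less RNA per cell cannot be told apart.

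The promoters of these genes were read first, because E2F sites are what the family is known for. RefSeq windows (GRCm38.p6, from 250 bases before to 50 after a start site) were found for 33 of the 39 genes. The E2F letters TTTCCCGC, TTTCGCGC, TTTGCCGC or TTTGGCGC, read on both strands, were in windows of 12 of these 33 genes, or 36.4%, against 2.26% of all 32851 windows and 4.91% of the tested genes with a window. The CCAAT box letters (CCAAT, both strands) were in windows of 22 of the 33 genes, or 66.7%, against 42.9% of the tested genes with a window. The CHR letters (TTTGAA, both strands), which are known from genes of G2 and mitosis, were in windows of 4 of the 33, or 12.1%, against 14.1%. A match is a description of the letters and not of a bound site. The genes with E2F letters were Cdc6, Cdt1, Gins3, Lig1, Mcm3, Mcm5, Mcm6, Mcm7, Orc1, Pola1, Pold1 and Rfc3.

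The stretches below show the upstream side of 2 genes whose RNA differed most in fold or in certainty between the groups, Rrm2 and Mcm7, beside Mcm6, which was chosen after its window was seen because it holds the most E2F letters. E2F letters (in Mcm6) and CCAAT letters on either strand are in capitals. Each runs 5′ to 3′ on the gene's strand. Mcm6 is chr1:128359706-128359875 on the minus strand, Mcm7 is chr5:138171267-138171436 on the minus strand at 1 of its 2 listed starts, and Rrm2 is chr12:24708084-24708240 on the plus strand.
Mcm6: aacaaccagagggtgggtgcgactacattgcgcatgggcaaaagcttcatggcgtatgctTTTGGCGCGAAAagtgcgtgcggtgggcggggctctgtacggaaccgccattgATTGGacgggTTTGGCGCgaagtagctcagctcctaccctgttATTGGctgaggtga
Mcm7: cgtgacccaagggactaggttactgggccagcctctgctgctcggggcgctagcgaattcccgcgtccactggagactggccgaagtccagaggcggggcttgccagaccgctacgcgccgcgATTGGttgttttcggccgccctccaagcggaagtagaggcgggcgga
Rrm2: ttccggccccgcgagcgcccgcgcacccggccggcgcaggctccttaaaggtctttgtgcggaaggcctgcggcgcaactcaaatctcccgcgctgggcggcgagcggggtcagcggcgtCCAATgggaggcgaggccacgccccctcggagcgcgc
Mcm6 had 3 E2F matches, of which a pair overlap in the first run of capitals, and Rrm2 had no match to these E2F letters in its window. The other Mcm7 start had 2 E2F matches. Of the 5 genes called below, 1 had E2F letters (Mcm7) and 4 had CCAAT letters (Mcm7, Orc6, Rrm2 and Slbp). Of the other 28 genes with a window, 11 had E2F letters and 18 had CCAAT letters.

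Values are RSEM counts that the authors divided by a size factor per library, called normalised counts here. The libraries held between 3876906 and 4916987 estimated reads. A log2 fold change is NA minus WT on log2(normalised count + 1), and a gene is called where its limma p, adjusted by Benjamini-Hochberg over all 11451 genes tested, was under 0.05. Several features of the libraries bear on every result. Within each group, library 4 was the nearest to a mixture of the remaining libraries: over 7238 genes the residual of such a fit was 12.8% of the gene mean for NA4, against 16.0% to 22.6% in the other NA libraries, and 8.86% for WT4, against 12.7% to 19.4%. Whether NA4 and WT4 are independent of the other libraries is not given by the labels and was not tested. If they are not, the SDs, standard errors and p-values from 4 libraries per group are too small. Each call is therefore also given without these libraries. Xist was at 1104 normalised counts in WT and 1.92 in NA MPPs, and Y-linked Eif2s3y at 0.222 and 604, so the groups differ in sex-linked transcripts and genotype and sex cannot be told apart. The gate genes Kit (1362 in NA, 1197 in WT MPPs), Flt3 (1442 and 1374) and Ly6a (1277 and 1548) were well expressed in both groups, and Cd48 was low (17.7 and 56.1). The groups still differed here. Of 6 such genes listed, 2 were called, both lower in NA MPPs and without overlap between the groups. These were Cd48 (-1.58, limma adjusted p = 0.00711) and Ly6a (-0.28, 0.0257). Kit, Flt3, Cd34 and Slamf1 were not called. Among markers of other blood cells, the summed level of 10 lymphoid genes ran from 159 to 266 in NA and from 406 to 511 in WT MPPs, and that of 10 granulocyte and monocyte genes from 3123 to 3364 and from 3563 to 4591. By group mean, NA first, Dntt (38.1 and 217) and Cd79b (163 and 220) held most of the lymphoid sum. Prtn3 (1523 and 2028) and Lyz2 (1697 and 1828) held most of the granulocyte and monocyte sum. Dntt, Prtn3 and Mpo were called lower in NA MPPs, and Cd79b and Lyz2 were not called. Among erythroid markers, Hbb-bt was also called lower (-1.99, limma adjusted p = 6.79e-05) and Car2 was not called. Il7r, Cd3e and Elane were at or near 0 in every library. The part of these differences in the results below was not tested.

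Calls among the replication genes are given beside those of all genes tested. By limma 5 of the 37 tested were called: Rrm2, Rfc4, Orc6 and Slbp were higher in NA MPPs and Mcm7 was lower. That is 13.5% of the tested members, beside 17.9% of all genes tested, of which 10.1% were called higher and 7.87% lower. NA and WT libraries were fully separated for 5 members, or 13.5%, against 22.0% of all genes. The median log2 fold change of the 37 was 0.08, with 25 positive and 12 negative, and the median over all genes was -0.01. In absolute size the median was 0.22 for the members and 0.28 for all genes. Rrm2 was the 1 called member with a fitted change of at least 2-fold on the log2(normalised count + 1) scale. The 95% interval of the log2 fold change lay between -1 and 1 for 28 of the 32 members that were not called, and between -0.5 and 0.5 for 12 of them. The share of members called was thus a little below that of all genes. By direction, 10.8% of the members were called higher, near the 10.1% of all genes, and 2.70% lower, beside 7.87%. A member that was not called is not shown to be equal in the groups.

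**Figure D1:**
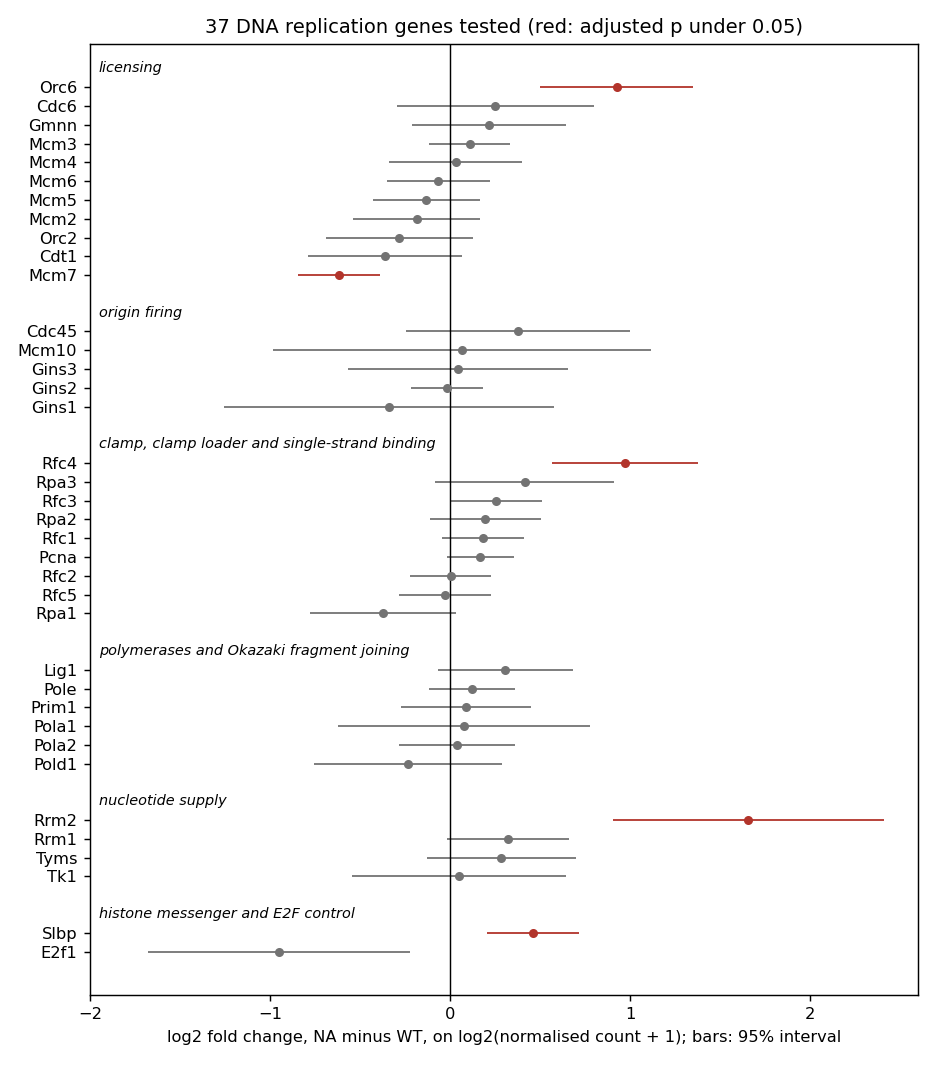
Log2 fold change (NA minus WT, x axis) of the 37 DNA replication genes tested, grouped by role, with 95% intervals as bars and called genes in red. Rrm2 (1.65), Rfc4 (0.97), Orc6 (0.93) and Slbp (0.46) lie to the right of 0 and Mcm7 (-0.62) to the left, and most other intervals cross 0.

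Of the 11 licensing genes tested, Orc6 was called higher, Mcm7 was called lower and 9 were not called, with a median log2 fold change of -0.07. Mcm7 (ENSMUSG00000029730), a subunit of the ring-shaped Mcm2-7 helicase, was at 326, 311, 331 and 306 normalised counts in NA1 to NA4. It was at 544, 458, 442 and 517 in WT1 to WT4. All NA libraries lay below all WT libraries, and the NA values spread little, with 319 ± 12.0 in NA and 490 ± 48.4 in WT MPPs (mean ± SD). The log2 fold change was -0.62 (standard error 0.106, limma adjusted p = 0.00143). Mcm7 was called in all 20 alternatives, with fold changes from -0.68 to -0.56, and at an adjusted p of 0.0432 by limma without NA4 and WT4. Its exons share 321 annotated bases with Ap4m1 and 64 with Cops6 on the opposite strand, and neither of these was called (log2 fold changes 0.14 and -0.17).

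The other helicase subunits were not called. Mcm6, the helicase subunit at the highest level per kilobase, was at 1009, 1001, 672 and 882 normalised counts in NA1 to NA4 and at 849, 812, 1110 and 939 in WT1 to WT4. The ranges overlapped in part, with NA3 lowest and WT3 highest of all, and the fold change was -0.07 (95% interval -0.35 to 0.22, limma adjusted p = 0.770). The fold changes of Mcm2, Mcm3, Mcm4 and Mcm5 were -0.18, 0.11, 0.03 and -0.13. Mcm3 held between 404 and 429 normalised counts in the NA and between 359 and 451 in the WT libraries, and its interval ran from -0.12 to 0.34. The ring holds each subunit at equal number, so the level of Mcm7 was also set against the mean of Mcm2 to Mcm6 within each library, per kilobase of exon. This ratio was 0.724, 0.667, 0.826 and 0.704 in NA1 to NA4 and 1.24, 1.17, 0.827 and 1.20 in WT1 to WT4. WT3 stood level with NA3 in this ratio, and the other WT libraries lay above every NA library. The ratio was chosen after the values were seen and carries no test, and its size depends on the annotated exon lengths.

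Orc6 (ENSMUSG00000031697), the smallest subunit of the origin recognition complex, was at 294, 256, 203 and 214 normalised counts in NA1 to NA4. WT1 to WT4 held 107, 189, 101 and 121. The groups did not overlap, although WT2 came close to NA3. Orc6 rose by 0.93 on the log2 scale (standard error 0.198, limma adjusted p = 0.00592), a 1.90-fold difference. It was called in all 20 alternatives and barely so without NA4 and WT4 (limma adjusted p = 0.0498). Its exons share 171 annotated bases with Vps35, which was not called (-0.11). Orc2, a core subunit of the same complex, was at -0.28 and was not called (limma adjusted p = 0.325). NA2 held 113 normalised counts of Orc2, and the other 7 libraries held from 185 to 239. Orc1, an ATP-binding subunit, was below the filter, with 8.40 to 17.5 normalised counts in NA and 1.14 to 10.2 in WT MPPs.

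The loaders and their inhibitor were not called. Cdc6 had a log2 fold change of 0.25, Cdt1 of -0.36 and Gmnn, the geminin that holds Cdt1 inactive, of 0.22. Cdt1 ranged from 114 to 146 normalised counts in NA and from 120 to 246 in WT MPPs, where WT2 was highest. Its fold change had a 95% interval from -0.79 to 0.07.

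**Figure D2:**
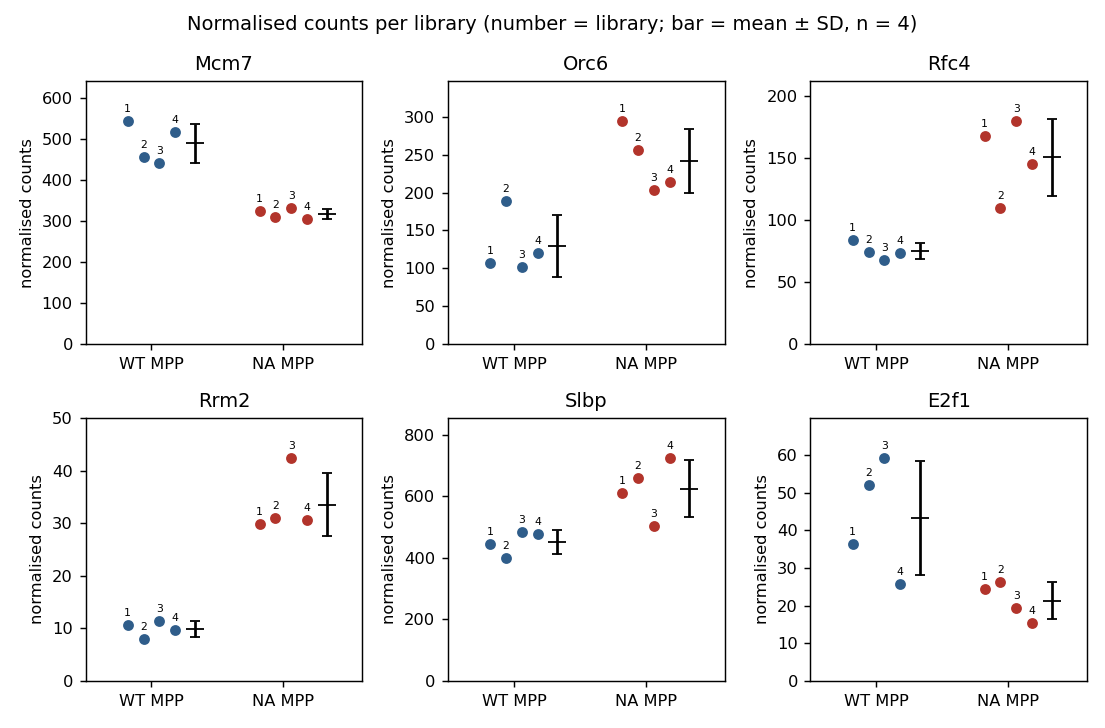
Normalised counts (y axis, from 0) of the 5 called genes and E2f1 in each WT (blue) and NA (red) library, with mean ± SD at the right of each group. The 4 NA and 4 WT values do not overlap for Mcm7, Orc6, Rfc4, Rrm2 and Slbp, while for E2f1 WT4 (25.7) lies below NA2 (26.3).

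None of the 5 genes of origin firing was called by limma, and none reached an unadjusted p under 0.05. Gins2, a GINS subunit and the highest of these genes per kilobase, was at 912, 769, 713 and 791 normalised counts in NA1 to NA4 and 760, 837, 800 and 817 in WT1 to WT4. Its interval was narrow, from -0.22 to 0.18 around -0.02. The other GINS subunits measured, Gins1 and Gins3, had fold changes of -0.34 and 0.04, with Gins1 as low as 12.9 normalised counts in NA3 and as high as 75.9 in WT2. Cdc45, which binds the helicase together with GINS, was at 0.38 (limma adjusted p = 0.391). Mcm10, which helps the helicase start, held from 6.79 to 15.9 normalised counts, and its interval was wide, from -0.98 to 1.12. Gins2 shares 2758 annotated exon bases with Gse1 on the opposite strand, which held a mean of 20.9 normalised counts.

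Among 9 genes of the clamp, its loader and the single-strand binding proteins, 1 was called. Rfc4 (ENSMUSG00000022881), a small subunit of replication factor C, was at 168, 110, 180 and 145 normalised counts in NA1 to NA4 and at 84.3, 74.7, 68.3 and 73.7 in WT1 to WT4. NA2 was the lowest of its group and still above all WT libraries, which lay close together. The means were 151 ± 30.8 and 75.3 ± 6.67 (mean ± SD), and the log2 fold change was 0.97 (standard error 0.189, limma adjusted p = 0.00326). It was called in 19 of 20 alternatives and missed the threshold without NA4 and WT4, at 0.97 with a limma adjusted p of 0.0519. Rfc4 exons share 194 annotated bases with Eif4a2 on the opposite strand, which held a mean of 4591 normalised counts. Eif4a2 had a fold change of -0.04 and was not called (limma adjusted p = 0.728). As the use of strand in counting is not given in the sources used here, the source of reads in those bases cannot be told apart.

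The other loader subunits stayed below the threshold. Rfc3 came nearest at 0.26 (limma adjusted p = 0.151), Rfc1, the large subunit, was at 0.18, and Rfc2 and Rfc5 were at 0.004 and -0.03. Rfc2 shares 952 annotated exon bases with Lat2 on the opposite strand, which was called higher (0.51, limma adjusted p = 0.0236). Per kilobase, Rfc4 stood at 1.12, 0.744, 1.03 and 0.996 times the mean of Rfc2, Rfc3 and Rfc5 in NA1 to NA4, and at 0.592, 0.471, 0.449 and 0.547 in WT1 to WT4. Rfc1 is not in this mean, and the ratio sets a called gene over genes that were not called. Pcna, the sliding clamp and the member at the highest level per kilobase, was at 1361, 1533, 1326 and 1600 normalised counts in NA1 to NA4. WT1 to WT4 held 1179, 1285, 1391 and 1315, of which WT3 lay above NA1 and NA3. Its fold change was 0.17 (95% interval -0.02 to 0.36, limma adjusted p = 0.201). The 3 subunits of replication protein A, which coats single-stranded DNA, differed in sign, with Rpa1 at -0.37, Rpa2 at 0.19 and Rpa3 at 0.41, and none was called. Rpa1 was called when NA3 was left out (log2 fold change -0.58, limma adjusted p = 0.0169). NA3 held 284 normalised counts of Rpa1, and the other NA libraries held 140 to 189.

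**Figure D3:**
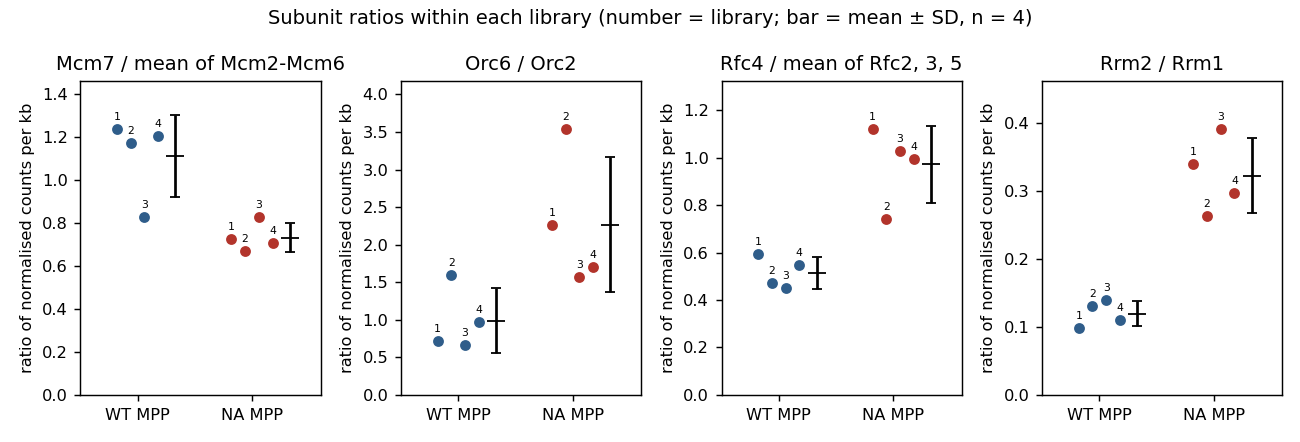
Ratio of normalised counts per kilobase of exon (y axis, from 0) between subunits of 4 complexes in each library, with mean ± SD at the right of each group. Mcm7 relative to Mcm2 to Mcm6 was 0.730 ± 0.0681 in NA and 1.11 ± 0.191 in WT MPPs, Orc6 relative to Orc2 2.27 ± 0.90 and 0.987 ± 0.430, Rfc4 relative to Rfc2, Rfc3 and Rfc5 0.972 ± 0.161 and 0.515 ± 0.0665, and Rrm2 relative to Rrm1 0.323 ± 0.0553 and 0.120 ± 0.0186. For Orc6 relative to Orc2 the groups overlapped, with WT2 above NA3. The highest value of that ratio was in NA2, the library with the lowest Orc2 level. Each ratio sets a called gene over genes that were not called, so it partly restates the call. No test was made of these ratios.

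None of the 6 tested genes of the polymerases and of Okazaki fragment joining was called by limma, and none had an unadjusted p under 0.05. Pole, the catalytic subunit of the leading-strand polymerase, was at 317, 373, 341 and 357 normalised counts in NA1 to NA4 and 296, 360, 319 and 303 in WT1 to WT4. The ranges overlapped, and the fold change was 0.12 (95% interval -0.12 to 0.36). Pola1 and Pola2 of the primase complex were at 0.08 and 0.04 and the primase Prim1 at 0.09, while Pold1, the catalytic subunit of polymerase delta, was at -0.23. Lig1, which seals the fragments, was at 0.31 (limma adjusted p = 0.240). It shares 247 annotated exon bases with Zswim9 on the opposite strand, which was called lower (-1.04, limma adjusted p = 0.0273). Fen1, the flap nuclease, was nearly absent from the table, with 0.940 to 3.73 normalised counts in NA and 1.14 to 4.44 in WT MPPs, at most 5 estimated reads in any library. Its exons share 1909 annotated bases with Gm10143, an antisense gene that held from 69.1 to 106 normalised counts in the 8 libraries. A further 130 bases are shared with Tmem258, which was called lower (-0.40, limma adjusted p = 0.0349). Reads of Fen1 and of these genes cannot be told apart in the shared bases without strand.

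Of 4 genes of nucleotide supply, Rrm2 was called. Rrm2 (ENSMUSG00000020649), the subunit of ribonucleotide reductase that is made in S phase, was at 29.9, 31.0, 42.5 and 30.7 normalised counts in NA1 to NA4. It was at 10.7, 7.93, 11.4 and 9.77 in WT1 to WT4. Every NA library held more than any WT library, and NA3 stood above the others. Rrm2 rose by 1.65 on the log2 scale (standard error 0.351, limma adjusted p = 0.00566), a 3.15-fold difference on that scale and the widest among the members. The counts behind it were small, from 7 to 46 estimated reads per library. Rrm2 was called in 18 of the 19 alternatives in which it was tested and missed the threshold without NA4 and WT4, at 1.69 with a limma adjusted p of 0.0778. Its partner Rrm1 was at 350, 468, 431 and 411 normalised counts in NA1 to NA4 and 429, 240, 326 and 352 in WT1 to WT4, where WT2 was lowest, and had a fold change of 0.32 (95% interval -0.02 to 0.66, limma adjusted p = 0.172). Per kilobase, Rrm2 was at 33.9%, 26.3%, 39.1% and 29.7% of Rrm1 in NA1 to NA4 and at 9.87%, 13.1%, 13.9% and 11.0% in WT1 to WT4. These percentages depend on the total annotated exon lengths, 2771 bases for Rrm2 and 11012 for Rrm1. In normalised counts the means of Rrm2 and Rrm1 were 33.5 and 415 in NA and 9.93 and 337 in WT MPPs. Tyms, which makes thymidylate, was at 0.29 and the thymidine kinase Tk1 at 0.05, and neither was called.

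Of the genes for histone messengers and E2F control, Slbp was called higher and E2f1 was not called. Slbp (ENSMUSG00000004642), the protein that binds the stem-loop of replication-dependent histone messengers, was at 610, 661, 504 and 725 normalised counts in NA1 to NA4 and at 445, 400, 485 and 478 in WT1 to WT4. NA3 was only slightly above WT3, and the groups did not overlap. Slbp exons share 474 annotated bases with Gm10459 on the opposite strand, which has no value here. The log2 fold change was 0.46 (standard error 0.120, limma adjusted p = 0.0173). Slbp was the least stable of the calls, made in 16 of 20 alternatives. It was lost without NA2 (limma adjusted p = 0.0501), without NA4 (0.0709), without NA4 and WT4 (0.135) and without a variance trend (0.0642). E2f1 (ENSMUSG00000027490), an activating factor for S phase genes, was at 24.3, 26.3, 19.4 and 15.4 normalised counts in NA1 to NA4 and at 36.4, 52.1, 59.2 and 25.7 in WT1 to WT4. Only WT4 fell within the NA range. E2f1, for which every library is given although it was not called, a choice made after its values were seen, had a log2 fold change of -0.95 and did not pass the threshold (95% interval -1.68 to -0.22, limma adjusted p = 0.0676). It passed under total-count scaling (-1.02, limma adjusted p = 0.0473), which shifted the median of all genes to -0.08.

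The members did not rise or fall as a block across libraries. The median over members of the level relative to each gene's own mean was between 0.03 and 0.10 on the log2 scale in NA1 to NA4, and it was -0.11, -0.14, 0.16 and -0.07 in WT1 to WT4. WT3 was thus above all NA libraries, and the remaining WT libraries were below them. WT3 held the highest value of 12 of the 37 genes and WT2 the lowest value of 11. For the licensing genes alone, WT3 stood at 0.25 and the NA libraries between 0.02 and 0.04. For the clamp and loader genes, each NA library (0.03 to 0.19) lay above each WT library (-0.11 to -0.02). The same held for the nucleotide supply genes, at 0.07 to 0.36 in the NA and -0.55 to -0.06 in the WT libraries. In the remaining roles the NA and WT ranges overlapped. Without WT3 the median log2 fold change of the members was 0.20 in place of 0.08.

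**Figure D4:**
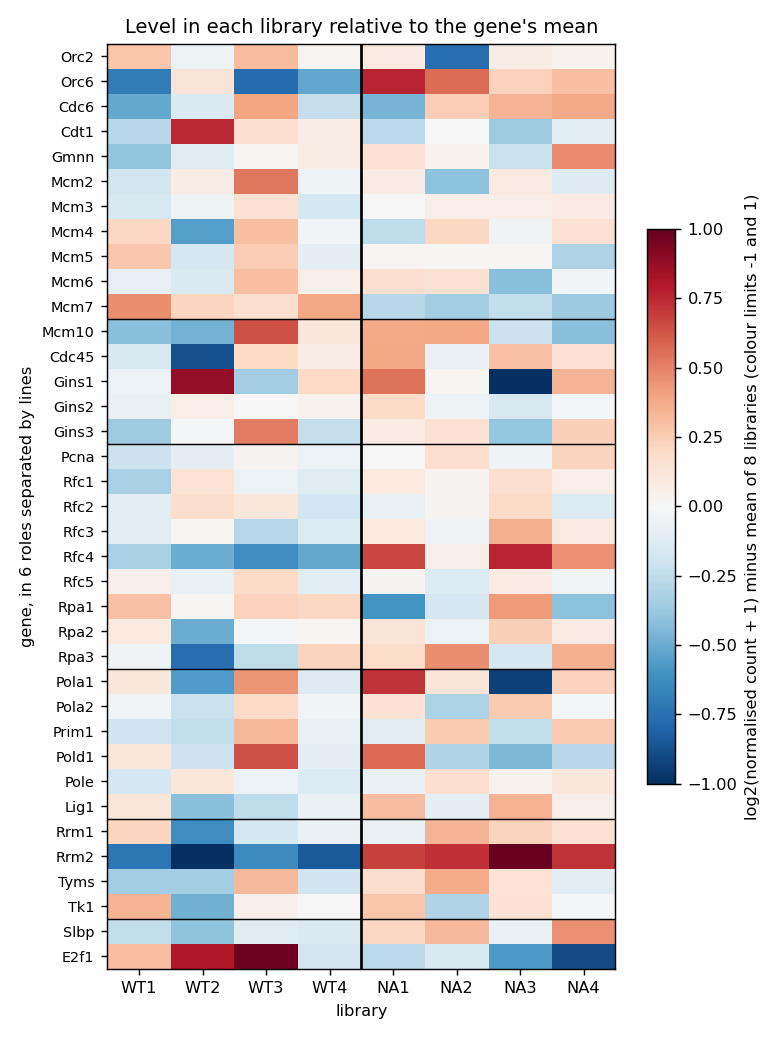
Level of each tested DNA replication gene (rows, in 6 roles separated by lines) in each library (columns), as log2(normalised count + 1) minus the gene's mean over the 8 libraries, with red above and blue below the mean. The colours stop at -1 and 1. Mcm7, Rfc4 and Rrm2 change colour at the line between WT and NA libraries, Orc6 does so except in WT2, while the WT3 column is red over most licensing genes and WT2 holds the lowest value of Cdc45, Rpa2, Rpa3 and Rrm1.

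Levels spanned a wide range over members. Per kilobase of annotated exon, Pcna stood at 572 normalised counts, followed by Gins2 and Mcm6 at 195 each, Rfc2 at 148 and Mcm3 at 108. Gins2 and Mcm6 cannot be ordered, and all these ranks depend on the annotated exon lengths. The lowest were Orc1 at 2.89, Mcm10 at 1.33 and Fen1 at 1.17. For Fen1, 1909 of 2422 annotated exon bases are shared with Gm10143, so its level is uncertain. The regulatory genes E2f1 (10.3), Cdc6 (14.3) and the S phase enzymes Tk1 (7.50) and Rrm2 (7.84) lay in the lower part, well below the helicase subunits (38.7 for Mcm2 to 195 for Mcm6).

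A list of 46 further replication genes was counted in the same way. Of 44 tested, none was called higher by limma and 4 were called lower, or 9.09%. Over all genes tested, 10.1% were called higher and 7.87% lower. The median log2 fold change of the 44 was 0.08. The groups did not overlap for 7 of the 44, or 15.9%, against 22.0% of all genes. The median was -0.01 where only genes averaging 50 or more normalised counts were kept. Leaving out NA4 or WT4 left 1 called lower, leaving out NA1, NA2, WT1, WT2 or WT3 left 2, and leaving out NA3 gave 5. Up to 2 were called higher, without NA1 (2), NA2 (1) or WT2 (1), and 1 with the replicate number as a block. Pold2, the second subunit of polymerase delta, fell by 0.71 on the log2 scale, from 179 ± 15.6 in WT to 110 ± 13.7 normalised counts in NA MPPs (limma adjusted p = 0.00670). The origin subunit Orc5 fell by 0.61 (limma adjusted p = 0.0396), Wdhd1, which ties polymerase alpha to the helicase, by 0.60 (0.0431), and Samhd1, which breaks down nucleotides, by 0.35 (0.0236). Without NA4 and WT4 none of the 4 was called.

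The E2F family differed among its members. Of 10 tested genes of E2F and pocket proteins 3 were called, or 30%, against 17.9% of all genes tested. E2f3, an activating E2F, rose by 0.68 (211 ± 33.3 in NA against 130 ± 11.3 normalised counts in WT MPPs, limma adjusted p = 0.00801), and Tfdp2, a dimer partner, rose by 0.59 (0.00741). E2f4, which mostly represses, fell by 0.45 (0.0497) and lost its call in 15 of 20 alternatives. Without NA4 and WT4 none of the 3 was called, and without WT1 the list median was 0.44 in place of 0.26.

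Genes of the neighbouring cell cycle stages are given for comparison, with no test of the difference between lists. Of all genes tested, 10.1% were called higher and 7.87% lower. Of 10 G1 and S cyclins and kinases, 4 were called higher (40%) and 2 lower (20%), with a median of 0.49. Cdk2, the kinase that acts with cyclins E and A, rose by 1.64 (388 ± 77.4 against 124 ± 26.2 normalised counts, limma adjusted p = 5.69e-05), and Cdk6, Ccna2 and Ccnd2 rose by 0.86, 0.76 and 0.52. Of 30 genes of G2 and mitosis, 7 were called higher and none lower, with a median of 0.48. That is 23.3% called, against 17.9% of all genes in both directions. The called genes of this list include Nusap1 (1.99), Aurkb (1.73), Prc1 (1.44) and Cenpf (1.20). For Nusap1 and Cenpf WT3 lay above NA3. The groups did not overlap for 5 of the 30 mitotic genes, or 16.7%, against 22.0% of all genes. They did not overlap for 6 of the 10 cyclins and kinases, or 60%. In that list WT2 stood at -0.85 relative to the mean of the libraries and NA1 at 0.55. Without WT2 the median was 0.28. The count of mitotic genes called was 3 without NA2 or NA4, with depth class as a covariate or with no low-value filter, and 4 without NA1, WT2 or WT4 or with no variance trend. Of the 2 cyclins and kinases called lower, Cdk4 was called and Ccnd3 was not when any library but NA1 was left out. Without NA4 and WT4 3 of the cyclins and kinases and 1 of the mitotic genes were called.

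**Figure D5:**
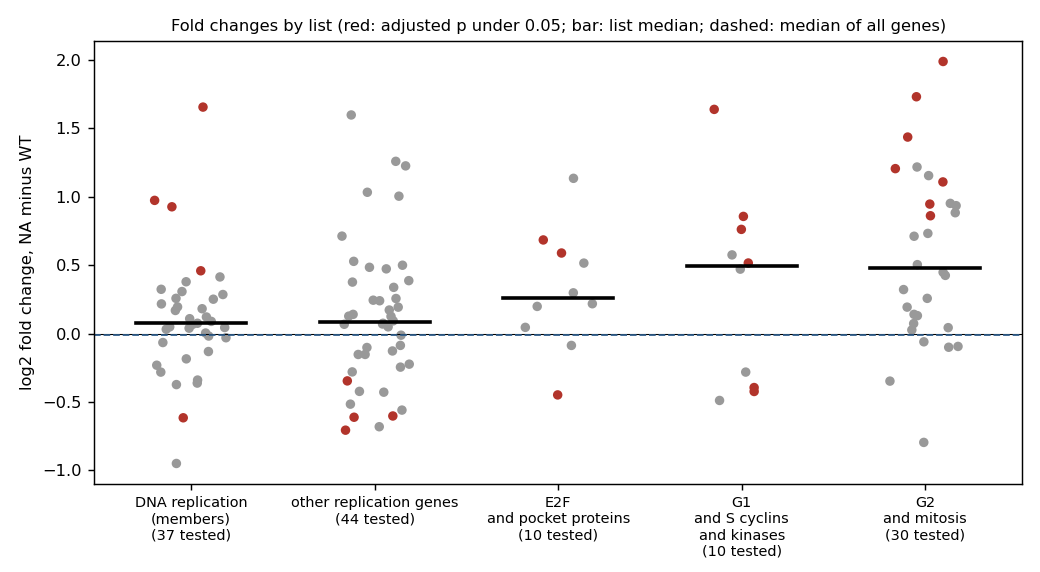
Log2 fold change (NA minus WT, y axis) of the tested genes in 5 lists, with called genes in red, the list median as a black bar and the median of all genes tested (-0.01) as a dashed line. The medians were 0.08 for the DNA replication genes, 0.08 for other replication genes, 0.26 for E2F and pocket proteins, 0.49 for G1 and S cyclins and kinases and 0.48 for G2 and mitosis.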

How the data were processed

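RNA was sequenced from 4 NA and 4 WT libraries of 1000 sorted MPPs, as amplified cDNA. The authors' table is labelled as raw counts, but the deposited values are a count signal: RSEM counts divided by a size factor per library. The submitters' processing notes name bcl2fastq, RSEM, DESeq2 and mm10. Versions, annotation and use of strand are not given in the sources used here. Depth was estimated from the smallest step between values (0.888 to 1.18 normalised counts per read). Of the values examined, 98.3% to 98.8% were whole reads within 0.02 of a step. The smallest fractional values and the largest values were left out of this share. Rows without a gene symbol held 0.779% of the signal and stayed in the tests.

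Genes that reached 10 normalised counts in 4 or more of the 8 libraries were tested with limma 3.58.1 (R 4.3.3) on log2(normalised count + 1), with a variance trend and Benjamini-Hochberg adjustment over all 11451 genes at 0.05. Replicate numbers were not used to pair the libraries in this test. The correlations of same-numbered deviations were 0.0874, 0.0271, 0.0131 and 0.158, the highest with any WT library for NA1 and NA4 only. The 20 alternatives changed scaling, pseudocount, filter, variance trend, GC, depth class, replicate block and the libraries used. Exon lengths and overlaps came from GENCODE M21 and promoters from RefSeq GRCm38.p6. A length covers all annotated exons of a gene together and can exceed that of its messenger. Printed stretches are the parts without an annotated exon of the 170 bases before a start, where at least 60 bases remained, so those of Orc6, Slbp and Rfc4 are not shown.

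The members and lists were chosen with earlier results of these data known. Named genes were all members, with the value in every library for those called and for the highest mean of each role, and up to 4 called genes of each other list by size of change.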

Additional observations from a re-analysis of the deposited data

Results flagged for a closer look

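In 74 groups of 4 values (37 genes, 2 groups), 4 had a library far from the other 3 by Dixon's ratio, where chance gives about 1 in 20. Orc2 stood at 113 normalised counts in NA2, and at 196 to 203 in the other NA libraries. Mcm5 stood at 228 in NA4 and at 284 to 287 in the others. Pold1 stood at 171 in NA1 and at 84.0 to 94.5 in the others. Rrm2 stood at 42.5 in NA3 and at 29.9 to 31.0 in the others. The 4 values lie in 4 different NA libraries, and Rrm2 is the 1 gene of these that was called.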

How the results depend on the processing

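Among the called genes, Orc6 and Mcm7 were called in all 20 alternatives, Rfc4 in 19, Rrm2 in 18 of 19 and Slbp in 16. The count tests with edgeR and DESeq2 were not run, because the table holds scaled values. Without NA4 and WT4, 2 members were called, Orc6 higher (1) and Mcm7 lower, and over all genes 519 were called, 375 higher and 144 lower. Under total-count scaling 2 members were called lower, with E2f1 added, the median of all genes was -0.0793, and 41.3% of calls were higher, against 56.1%. With no variance trend 595 genes were called lower, and with no filter the median of all genes was -0.0218. Leaving out each library in turn gave 4 to 6 called members, 3 to 4 higher and 1 to 2 lower, with a median from 0.0474 to 0.198 (without WT3). Over all genes it gave 1130 to 2188 calls (1130 without NA4, 1271 without WT4), 674 to 1196 higher and 456 to 1008 lower, with a median from -0.0192 to -0.00409. The causes were not tested. With the replicate number as a block, 2004 genes and the same 5 members were called. Libraries 1 and 4 but not 2 and 3 of NA correlated best with their own number in WT.

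Signs turned for 12 members, none of them called. With a GC trend removed, the log2 fold change of Gins2 was 0.0683, of Mcm4 -0.064, of Pola1 -0.0813 and of Prim1 -0.0329. Under total-count scaling Gins3 was at -0.023, Mcm4 at -0.0368, Pola2 at -0.0293, Rfc2 at -0.0647 and Tk1 at -0.0181. Without NA4 and WT4 Gins3 was at -0.0997, Mcm4 at -0.014, Pola1 at -0.0202 and Rfc2 at -0.012. Rfc2 was at -0.00169 under upper-quartile scaling and Tk1 at -0.012 with depth class as a covariate. Leaving out 1 library gave -0.576 to 0.132 for Gins1, -0.0851 to 0.0333 for Gins2, -0.0663 to 0.222 for Gins3, -0.0797 to 0.294 for Mcm10, -0.145 to 0.137 for Mcm4, -0.131 to 0.0638 for Mcm6, -0.152 to 0.398 for Pola1, -0.0426 to 0.15 for Pola2, -0.0591 to 0.0633 for Rfc2, -0.0716 to 0.0281 for Rfc5 and -0.104 to 0.17 for Tk1. Orc1, Fen1, Mcm10 and Rrm2 had the lowest mean normalised counts of the members. For Fen1 the part of depth and of the bases shared with Gm10143 was not tested.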
